A study of Mus musculus with 8 samples.

Results

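This account covers 38 genes of the cell division cycle in mouse acute myeloid leukaemias, divided by the phase in which their RNA is known to peak. The S-phase set has 16 members and the G2-M set 22, taken by gene symbol from 18860 measured genes. All 38 had a row in each library, and all 38 passed the filter on low values. The 11B3-deleted group (n = 4 libraries) carried the alleles 11B3fl/p53fl;shNf1;shMll3;Vav1-Cre. The p53-loss-only group (n = 4 libraries) carried p53fl/fl;shNf1;shMll3;Vav1-Cre. Both groups therefore share loss of p53, hairpins against Nf1, which restrains Ras, and Mll3, a histone methyltransferase, and a Cre recombinase that the Vav1 promoter drives in blood cells. They differ in that 1 chromosome of the 11B3-deleted animals loses the 11B3 segment around the p53 gene instead of p53 alone. Cells came from the marrow of moribund C57BL/6 mice, and total RNA was sequenced. The comparison asks how RNA differs between loss of the segment and loss of p53 only.

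The libraries held 30591456 to 35719495 reads across 11B3-deleted leukaemias and 30502718 to 33365364 across p53-loss-only leukaemias. Values are the deposited ones, reads scaled for library size with 1 added, and they are not scaled to gene length, so levels of different genes are not compared. The p53 gene, Trp53, stood at 189 to 393 in 11B3-deleted leukaemias and reached 300.2 to 577 in p53-loss-only leukaemias, and these overlapping ranges do not check the genotype labels. All 9 myeloid progenitor markers and all 12 markers of mature granulocytes were detected in every library. So were all 12 monocyte and macrophage, 14 erythroid and 12 T and NK cell markers, so detection does not separate the lineages. Erythroid and B lineage RNA varied widely between libraries, as given with the results below. In bulk RNA, fewer dividing cells and less RNA per dividing cell cannot be told apart.

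Cells that commit to division release E2F transcription factors from the retinoblastoma protein, and E2F then turns on cyclin E and the genes that load, open and copy replication origins. Later, cyclin A and cyclin B bind the kinase CDK1, and a second wave of genes builds the spindle, attaches chromosomes to it and finally marks cyclin B for destruction. The promoters of the first wave are known for E2F elements and those of the second for the cell cycle genes homology region (CHR) and CCAAT boxes, bound by the DREAM and MYB-MuvB complexes with FOXM1 and by NF-Y. In acute myeloid leukaemia these RNAs are commonly read as a measure of how much of the population is dividing.

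The phases differed in their promoter letters. The choice of members did not use these letters, but the motifs were picked as known elements of S-phase and G2-M promoters. A difference was therefore foreseeable and is given as a description. RefSeq promoter windows of the GRCm38.p6 build, from 250 bases before to 50 bases after the transcription start, were matched for 13 S-phase and 19 G2-M members. Mcm4, Gins1, Ccne2, Ccna2, Tpx2 and Foxm1 had none. Windows were searched on both strands for E2F (TTTCCCGC, TTTCGCGC, TTTGCCGC or TTTGGCGC), CHR (TTTGAA) and CCAAT. Below are the promoters of Mcm5 and Cdc6, which hold an E2F match, and of Kif11 and Plk1, which hold a CHR match. They are shown 5′ to 3′ on the gene's strand, with every match in capitals, reverse matches included.
Mcm5: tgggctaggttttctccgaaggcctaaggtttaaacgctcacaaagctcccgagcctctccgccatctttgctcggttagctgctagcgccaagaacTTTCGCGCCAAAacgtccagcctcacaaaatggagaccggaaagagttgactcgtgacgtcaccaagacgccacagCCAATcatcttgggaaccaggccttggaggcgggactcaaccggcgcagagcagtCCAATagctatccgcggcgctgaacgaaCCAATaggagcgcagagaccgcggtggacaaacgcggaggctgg
Cdc6: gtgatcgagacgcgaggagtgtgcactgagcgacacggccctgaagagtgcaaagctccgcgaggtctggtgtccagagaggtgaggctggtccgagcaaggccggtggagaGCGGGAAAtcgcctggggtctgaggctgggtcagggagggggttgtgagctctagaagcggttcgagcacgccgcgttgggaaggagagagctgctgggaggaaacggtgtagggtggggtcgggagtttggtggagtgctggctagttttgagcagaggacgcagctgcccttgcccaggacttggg
Kif11: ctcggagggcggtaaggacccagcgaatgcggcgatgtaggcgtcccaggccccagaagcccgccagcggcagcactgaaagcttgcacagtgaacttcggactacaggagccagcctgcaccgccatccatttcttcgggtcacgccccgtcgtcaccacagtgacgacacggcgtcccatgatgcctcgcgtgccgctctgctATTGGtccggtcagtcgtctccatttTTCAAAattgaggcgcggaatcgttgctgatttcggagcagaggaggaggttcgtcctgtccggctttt
Plk1: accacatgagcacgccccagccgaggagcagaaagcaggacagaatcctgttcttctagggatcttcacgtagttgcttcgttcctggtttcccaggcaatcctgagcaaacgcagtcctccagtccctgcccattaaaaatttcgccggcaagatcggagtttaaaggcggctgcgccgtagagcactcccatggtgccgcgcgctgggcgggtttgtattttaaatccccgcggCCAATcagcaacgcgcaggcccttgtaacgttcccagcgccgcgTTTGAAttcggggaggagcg

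The Mcm5 window is chr8:75109259-75109558, plus strand. It has 2 E2F matches on opposite strands that overlap, starting at -153 and -149 from the start site, and 3 CCAAT boxes at -77, -22 and +7. The Cdc6 window is chr11:98907901-98908200, plus strand, with a single reverse E2F match at -138 and no CCAAT. Kif11 (chr19:37376132-37376431, plus strand) has a reverse CCAAT at -45 and a reverse CHR at -19, and Plk1 (chr7:122159185-122159484, plus strand) a CCAAT at -14 and a CHR at +31.

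An E2F match was present in 5 of 13 S-phase genes, Mcm3, Mcm5, Mcm6, Mcm7 and Cdc6, and in 1 of 19 G2-M genes, Cdk1. Counted over windows these shares were 35.7% in S-phase and 5.26% in G2-M, against 2.26% of all 32851 windows. A CHR match was present in 2 of 13 S-phase genes, Mcm2 and Cdc45, and in 14 of 19 G2-M genes. The corresponding window shares were 14.3% in S-phase and 73.7% in G2-M, against 17.9% of all windows. CCAAT was common to both phases, in 71.4% of S-phase windows and 84.2% of G2-M windows, against 37.4% of all windows. CHR together with CCAAT occurred in 14.3% of S-phase windows, in 68.4% of G2-M windows and in 6.95% of all windows. The mean GC content was 59.2% in S-phase, 59.4% in G2-M and 53.8% over all windows, so members and the whole table differ in base composition. Ccnb1, Bub1, Cenpe, Nusap1 and Nuf2 had no CHR in these letters within the window. A match is a description of letters and not a measured binding site.

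**Figure D1:**
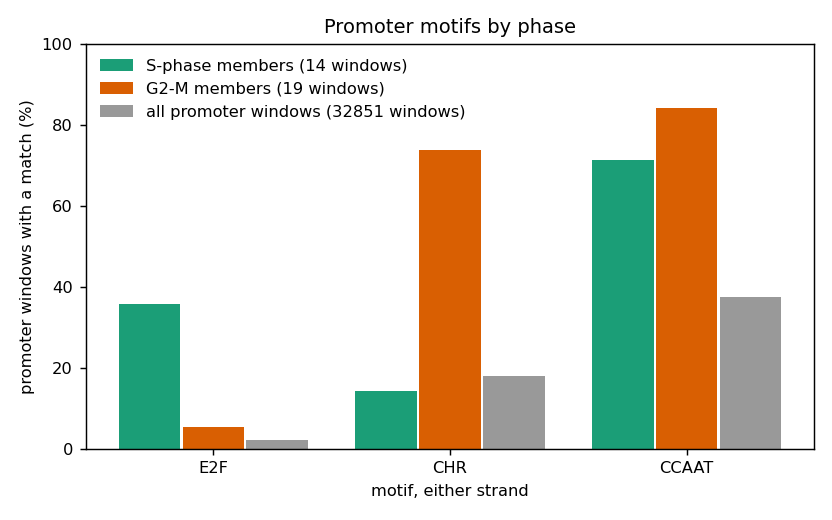
The plot gives the percentage of promoter windows that hold each motif, for S-phase members, G2-M members and all RefSeq windows. E2F letters stand in 35.7% of S-phase windows and CHR letters in 73.7% of G2-M windows, while CCAAT is frequent in both phases.

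Across the 8 leukaemias the phases moved together from library to library. Each member's log2 value was set against its own mean over the 8 libraries, and the median over members was taken in each library. The S-phase median was 0.47, -0.54, 0.51 and 0.03 in 11B3-deleted leukaemias 1 to 4, compared with -0.17, -0.01, -0.45 and 0.30 in p53-loss-only leukaemias 1 to 4. The G2-M median was 0.52, -0.32, 0.40 and 0.07 in 11B3-deleted leukaemias, compared with -0.27, -0.20, -0.38 and 0.31 in p53-loss-only leukaemias. The same 3 libraries were highest in both phases, 11B3-deleted 1, 11B3-deleted 3 and p53-loss-only 4, and the same 2, 11B3-deleted 2 and p53-loss-only 3, were lowest. The median over all tested genes lay between -0.01 and 0.01 in every library.

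The lowest library differed by phase. Of 16 S-phase members, 14 were lowest in 11B3-deleted 2 and the other 2, Ccne1 and Ccne2, in p53-loss-only 3. Of 22 G2-M members, 6 were lowest in 11B3-deleted 2 and 12 in p53-loss-only 3. At the upper end, 11B3-deleted 1 held the highest value of 16 members, 11B3-deleted 3 that of 15 and p53-loss-only 4 that of 5. The S-phase minus G2-M gap within a library was -0.04, -0.23, 0.11 and -0.04 in 11B3-deleted leukaemias, compared with 0.11, 0.19, -0.08 and -0.01 in p53-loss-only leukaemias. These gaps ran from below to above 0 in both groups.

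**Figure D2:**
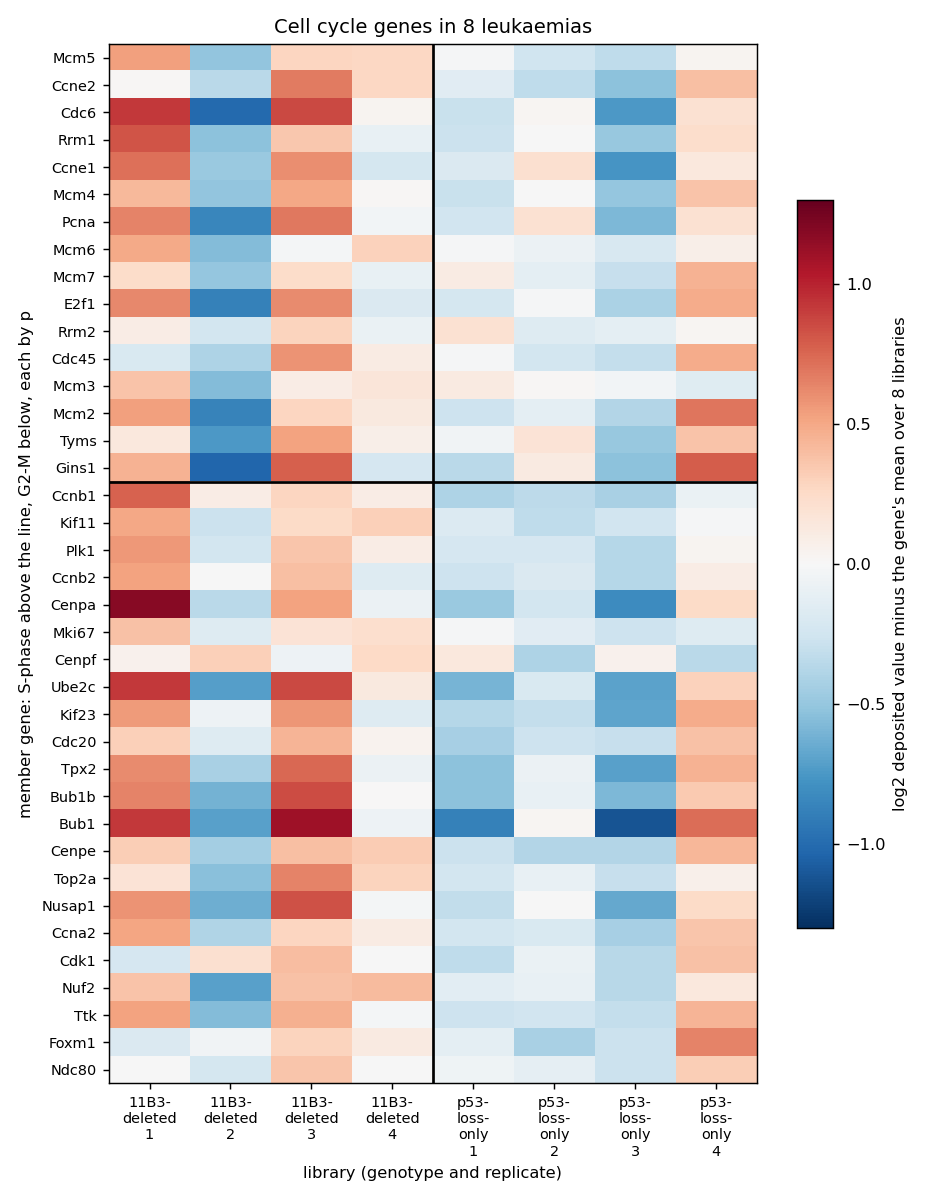
Each row is a member gene and each column a library, coloured by the log2 value minus the gene's mean over the 8 libraries, with S-phase genes above the horizontal line and G2-M genes below it. Columns 11B3-deleted 1 and 3 are mostly red in both phases, 11B3-deleted 2 and p53-loss-only 3 mostly blue, and the row of Cenpf departs from the others.

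In size, this variation was near the median of all tested genes and above that of genes at or above the lowest member's mean. The SD of log2 values over the 8 libraries had a median of 0.42 for S-phase members and 0.39 for G2-M members, against 0.44 over all tested genes. Among the 8428 tested genes at or above the mean of the lowest member, the median SD was 0.34. The ratio of the highest to the lowest library had a median of 2.36 in S-phase and 2.11 in G2-M, against 2.45 over all tested genes. Over the same 8428 genes this median was 1.99. The members varied closely with each other. Pearson's r of log2 values over the 8 libraries had a median of 0.76 over 120 pairs of S-phase members, 0.78 over 231 pairs of G2-M members and 0.73 over 352 pairs across the phases, against 0.00 over all pairs of tested genes. With each group's mean removed, these medians were 0.80, 0.78, 0.77 and 0.00. The pairs share libraries and scaling, so the values are given without a test. A gene resembled members of the other phase nearly as closely as those of its own.

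The most typical members were Ube2c, Cdc6 and Mcm4, each with a median r of 0.87 with the other members. Cenpf, a large protein of the outer kinetochore, ran against them, with a median r of -0.40 with S-phase and -0.23 with G2-M members. Its values were 4227, 5014, 3885 and 4856 in 11B3-deleted leukaemias 1 to 4, compared with 4470, 3071, 4204 and 3172 in p53-loss-only leukaemias 1 to 4. Cenpf was highest in 11B3-deleted 2, where most S-phase members were lowest, and low in p53-loss-only 4, where most members were high. The next least typical were Cdk1 (median r 0.38), Foxm1 (0.42), Mcm3 (0.55) and Rrm2 (0.58).

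**Figure D3:**
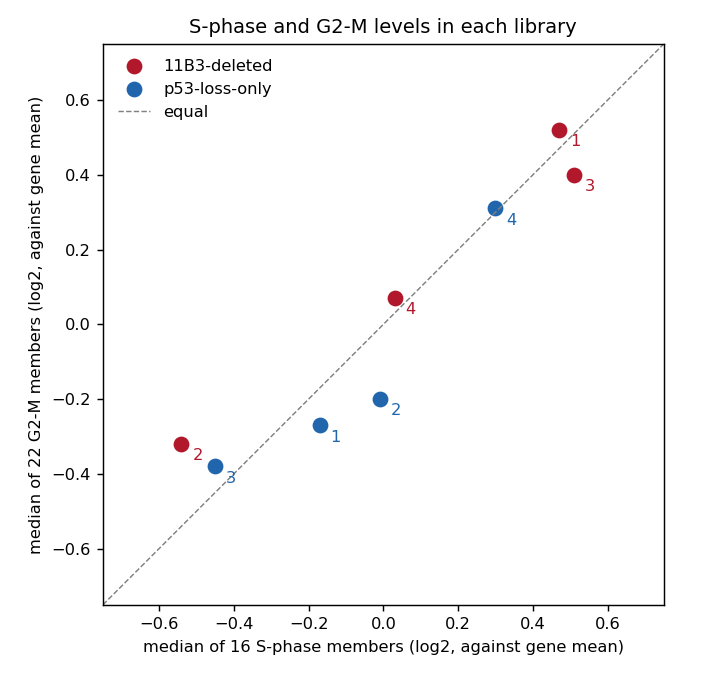
Each point is a library, with the median of the S-phase members on the x axis and of the G2-M members on the y axis, both as log2 differences from each gene's mean over the 8 libraries. The libraries line up near the diagonal, and 11B3-deleted points occupy both the upper end, at S-phase medians of 0.47 and 0.51, and the lower end, at -0.54.

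Between the genotypes, most members had a somewhat higher mean in the 11B3-deleted leukaemias, with a larger median difference in G2-M than in S-phase, and none passed the test. A higher mean was found for 13 of 16 S-phase members and all 22 G2-M members, against 51.6% of all tested genes and 55.0% of the tested genes at or above the lowest member's mean. The members vary together, so these counts are not independent observations. The median log2 difference was 0.10 in S-phase (range -0.06 to 0.41) and 0.34 in G2-M (range 0.06 to 0.64), against 0.01 over all tested genes. With limma, 0 of 38 members had an adjusted p under 0.05 over all 14679 tested genes (smallest adjusted p = 0.996), where 0.0136% of all genes did. At an unadjusted limma p under 0.05 there was 1 member, Ccnb1, against 1.18% of genes that were higher at that level and 3.56% that differed in either direction. No member was lower at that level, where 2.38% of genes were. On the recovered reads edgeR called 0 members after adjustment, against 0.00681% of genes, and 1 member (Ccnb1) had an unadjusted edgeR p under 0.05, against 4.2% of genes. DESeq2 called 0 members after adjustment, against 0.395% of genes, and 2 (Ccnb1 and Kif11) had an unadjusted DESeq2 p under 0.05, against 5.42% of genes. At the unadjusted level the members were thus near the share of all genes. In 1 of 38 members, Ccnb1, every 11B3-deleted library lay above every p53-loss-only library, against 0.913% of all tested genes, and in none did every one lie below, against 1.23%.

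The differences between the group averages of the library medians were within the spread between libraries. The S-phase library median averaged 0.12 ± 0.49 across 11B3-deleted leukaemias and -0.08 ± 0.31 across p53-loss-only leukaemias (SD, n = 4 each). For G2-M these averages were 0.17 ± 0.37 across 11B3-deleted leukaemias and -0.13 ± 0.31 across p53-loss-only leukaemias. By this measure the differences were 0.20 in S-phase and 0.30 in G2-M, nearer each other than the median member differences of 0.10 and 0.34. The S-phase minus G2-M gap averaged -0.05 ± 0.14 across 11B3-deleted leukaemias and 0.05 ± 0.12 across p53-loss-only leukaemias, a difference of -0.10. Single libraries moved the S-phase median of 0.10 most. It was 0.37 without 11B3-deleted 2 and 0.27 without p53-loss-only 4, and it was 0.02 without 11B3-deleted 1 or 11B3-deleted 3 and 0.04 without p53-loss-only 3. The G2-M median lay between 0.25 and 0.51 with any 1 library left out. Without 11B3-deleted 2, 12 members reached an unadjusted limma p under 0.05, 2 of them in S-phase (Mcm5 and Cdc6), the smallest limma adjusted p was 0.613, and the share of all genes at that unadjusted level was 7.96%. Without p53-loss-only 4 there were 5 such members, Ccnb1, Ccnb2, Cenpa, Cdc20 and Kif23, against 3.63% of all genes. Without 11B3-deleted 4 there were 2, Ccnb1 and Ccnb2, against 4.72% of all genes. The library 11B3-deleted 2 was the lowest of all for 20 members, and p53-loss-only 4 had the highest phase medians of its group. Leaving out either one raises the differences by construction, so the counts of 12 and 5 do not test the genotype difference.

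Erythroid RNA was highest in 11B3-deleted 1 and B lineage RNA in 11B3-deleted 3, and the lineages did not share a pattern over the libraries. The summed value of 14 erythroid markers, all with a higher mean in the 11B3-deleted group, was 231737, 13854, 61249 and 28904 in 11B3-deleted leukaemias 1 to 4, compared with 26107, 56336, 3052 and 8849 in p53-loss-only leukaemias 1 to 4. That of 12 B lineage markers, also all higher on average, was 611, 408, 58779 and 1785 in 11B3-deleted leukaemias, compared with 942, 2213, 425 and 1262 in p53-loss-only leukaemias. Dntt and Rag1 were at 0 reads in at least 1 library. Summed myeloid progenitor markers ranged from 153600 to 618451 in 11B3-deleted leukaemias and 177735 to 382106 in p53-loss-only ones (3 of 9 with a higher mean), and granulocyte markers from 380611 to 1050519 in 11B3-deleted and 496636 to 1338884 in p53-loss-only ones (5 of 12). By library the granulocyte sums were 418516, 1050519, 380611 and 887896 in 11B3-deleted leukaemias 1 to 4. They were 912821, 622367, 1338884 and 496636 in p53-loss-only leukaemias 1 to 4. The lowest sums were in the libraries with the highest cell cycle medians, 11B3-deleted 1 and 3 and p53-loss-only 4. The highest were in p53-loss-only 3 and 11B3-deleted 2. The median over these markers, each against its own mean, kept this order only in part, with -0.82 in p53-loss-only 3. Monocyte and macrophage markers ranged from 163667 to 360903 in 11B3-deleted leukaemias and 237830 to 389105 in p53-loss-only ones (4 of 12). T and NK cell markers summed to 416 to 2256 in 11B3-deleted leukaemias and 919 to 1520 in p53-loss-only ones (5 of 12). The libraries with most erythroid RNA (11B3-deleted 1) and most B lineage RNA (11B3-deleted 3) were also those with the highest cell cycle medians, while p53-loss-only 4, the third highest in the members, had sums of 8849 and 1262. The part of erythroid, B lineage and granulocyte RNA in the result was not tested. Leaving out 11B3-deleted 1 and 3 cannot test it. These libraries were also highest in the members, so the median differences fall whatever the lineage RNA. With 11B3-deleted 1 and 3 both left out, a setting chosen after the data were seen, the median log2 difference was -0.19 in S-phase (2 higher, 14 lower) and 0.09 in G2-M (14 higher, 8 lower). Ccnb1 alone of the members then had an unadjusted limma p under 0.05, against 2.54% of all genes, with a limma adjusted p of 1.0.

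**Figure D4:**
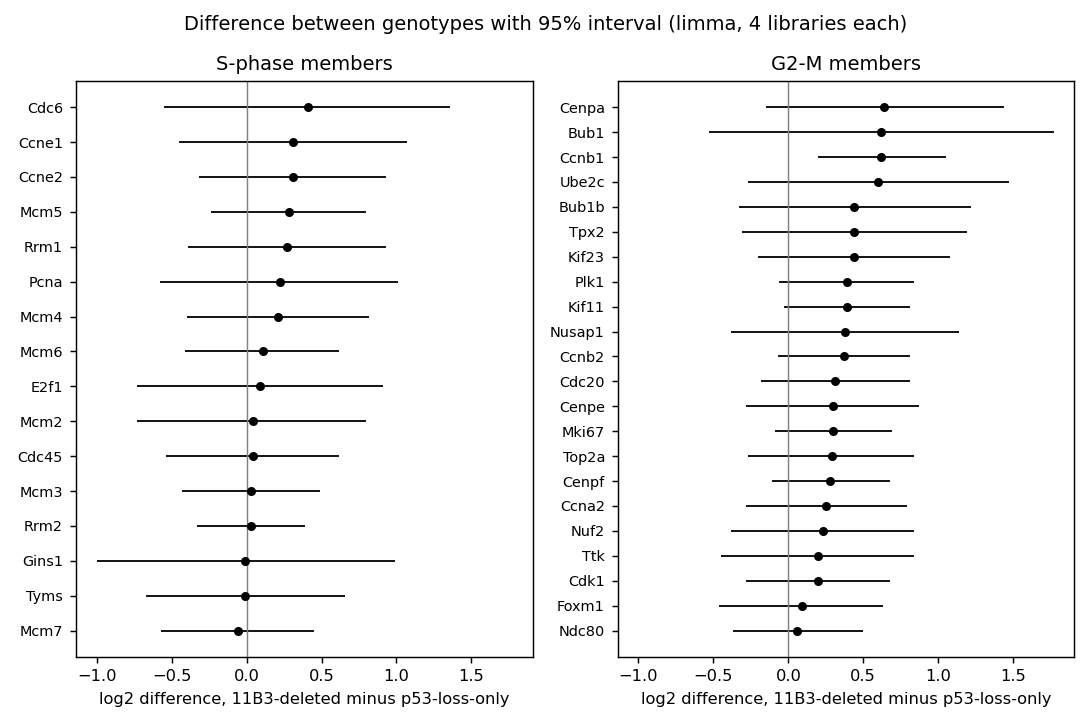
The log2 difference of each member, 11B3-deleted minus p53-loss-only, is shown with its 95% interval from limma, S-phase and G2-M members in separate panels. The interval of Ccnb1, 0.20 to 1.05, excludes 0 before adjustment, and the intervals of the other 37 include it.

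The MCM genes encode the ring-shaped helicase that unwinds DNA at replication forks. Of the 6, 5 had a higher mean, and all 6 of the 95% intervals include 0 (log2 differences -0.06 to 0.28, SE 0.20 to 0.34). Mcm5 had the smallest p in S-phase, with 10923, 5283, 9181 and 9109 in 11B3-deleted leukaemias 1 to 4, compared with 7466, 6339, 6034 and 7745 in p53-loss-only leukaemias 1 to 4. Its log2 difference was 0.28 (SE 0.23, 95% interval -0.24 to 0.80; limma adjusted p = 0.996). For Mcm5, 3 of the 4 11B3-deleted libraries lay above every p53-loss-only library, and 11B3-deleted 2 lay below them all. Mcm2 was at 8953, 3398, 7533 and 6772 in 11B3-deleted leukaemias and reached 5157, 5673, 4750 and 10058 in p53-loss-only leukaemias. The lowest value of Mcm2 thus came from 11B3-deleted 2 and the highest from p53-loss-only 4 (log2 difference 0.04, SE 0.34). Mcm4 (0.21, SE 0.27), Mcm6 (0.11, SE 0.23), Mcm3 (0.03, SE 0.20) and Mcm7 (-0.06, SE 0.23) had small differences.

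Cdc6 loads the MCM ring onto origins, while Cdc45 and Gins1 join it to make the active helicase. Cdc6 was at 3238, 852, 3106 and 1758 in 11B3-deleted leukaemias 1 to 4, compared with 1403, 1736, 1020 and 1962 in p53-loss-only leukaemias 1 to 4. It had the largest log2 difference of S-phase, 0.41, with an SE of equal size (0.42; limma adjusted p = 0.996). Gins1 was at 618, 222, 774 and 389 in 11B3-deleted leukaemias and reached 354, 491, 311 and 778 in p53-loss-only leukaemias. Both genes varied several-fold within a genotype, and for both the lowest library was 11B3-deleted 2. The mean difference was close to 0 for Gins1 (log2 difference -0.01, SE 0.44) and for Cdc45 (0.04, SE 0.26).

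Pcna is the sliding clamp that holds polymerases on DNA. It was at 6857, 2424, 7015 and 4261 in 11B3-deleted leukaemias 1 to 4, compared with 3676, 5017, 2916 and 5027 in p53-loss-only leukaemias 1 to 4. The 2 highest libraries and the lowest one were all 11B3-deleted, and the log2 difference was 0.22 (SE 0.35; limma adjusted p = 0.996). Ribonucleotide reductase, made of Rrm1 and Rrm2, supplies deoxynucleotides, and Tyms, thymidylate synthase, makes thymidylate. Rrm1 was at 14043, 5513, 10108 and 7447 in 11B3-deleted leukaemias and reached 6576, 7949, 5655 and 9311 in p53-loss-only leukaemias (log2 difference 0.27, SE 0.29). Rrm2 (0.03, SE 0.16) and Tyms (-0.01, SE 0.29) had nearly equal means, and the interval of Rrm2 ran from -0.33 to 0.39.

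Entry into S phase is driven by E2f1 and the cyclin E genes Ccne1 and Ccne2, activators of CDK2. E2f1 was at 1695, 596, 1679 and 965 in 11B3-deleted leukaemias 1 to 4, compared with 934, 1085, 825 and 1531 in p53-loss-only leukaemias 1 to 4. Ccne1 was at 1490, 649, 1382 and 774 in 11B3-deleted leukaemias and reached 793, 1051, 533 and 995 in p53-loss-only leukaemias. Both followed the library pattern of Pcna, high in 11B3-deleted 1 and 3 and low in 11B3-deleted 2 and p53-loss-only 3. Ccne2 was at 1146, 888, 1815 and 1370 in 11B3-deleted leukaemias and reached 1026, 904, 785 and 1487 in p53-loss-only leukaemias. The groups overlapped for all 3 genes, with log2 differences of 0.31 for Ccne2 (SE 0.28), 0.31 for Ccne1 (SE 0.34) and 0.09 for E2f1 (SE 0.36).

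Among the mitotic kinases and cyclins, Ccnb1 stood out. Ccnb1 (ENSMUSG00000041431) encodes cyclin B1, the partner of CDK1 at entry into mitosis. It was at 4366, 2730, 3114 and 2738 in 11B3-deleted leukaemias 1 to 4, compared with 1937, 2015, 1914 and 2414 in p53-loss-only leukaemias 1 to 4. The lowest 11B3-deleted library, 11B3-deleted 2, stood above the highest p53-loss-only library, p53-loss-only 4. Means were 3237 ± 774 across 11B3-deleted leukaemias and 2070 ± 233 across p53-loss-only leukaemias (SD, n = 4 each). The log2 difference of 0.62 (SE 0.19, 95% interval 0.20 to 1.05) did not pass adjustment over all genes (limma adjusted p = 0.996, DESeq2 adjusted p = 0.238), and it lay between 0.47 and 0.70 with any 1 library left out.

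Ccnb2, cyclin B2, was at 4935, 3426, 4504 and 3048 in 11B3-deleted leukaemias 1 to 4, compared with 2841, 3016, 2648 and 3670 in p53-loss-only leukaemias 1 to 4. All but p53-loss-only 4 lay below the 11B3-deleted libraries (log2 difference 0.37, SE 0.19; limma adjusted p = 0.996). Cdk1, the kinase itself, was at 2989, 4023, 4602 and 3468 in 11B3-deleted leukaemias and reached 2761, 3274, 2713 and 4536 in p53-loss-only leukaemias. Cdk1 did not share the high level of 11B3-deleted 1 seen in both cyclins (log2 difference 0.20, SE 0.21). Plk1, a kinase of spindle formation, was at 3395, 1939, 2934 and 2446 in 11B3-deleted leukaemias and reached 1965, 1977, 1768 and 2357 in p53-loss-only leukaemias. As for Mcm5, 3 of 4 11B3-deleted libraries lay above every p53-loss-only one (log2 difference 0.39, SE 0.20). Ccna2, cyclin A2, had a log2 difference of 0.25 (SE 0.24).

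Foxm1, a transcription factor of mitotic genes, was at 4213, 4649, 5863 and 5193 in 11B3-deleted leukaemias 1 to 4, compared with 4405, 3572, 3961 and 7512 in p53-loss-only leukaemias 1 to 4. Its highest library was p53-loss-only 4, and its means were close (log2 difference 0.09, SE 0.24, 95% interval -0.46 to 0.63). Mki67, the proliferation antigen that coats mitotic chromosomes, was at 50636, 34588, 43908 and 45217 in 11B3-deleted leukaemias and reached 38561, 35092, 32292 and 34575 in p53-loss-only leukaemias. Of the 4 11B3-deleted libraries, 3 lay above every p53-loss-only library (log2 difference 0.30, SE 0.17). Top2a, the topoisomerase that untangles sister chromatids, was at 22838, 13877, 31612 and 24777 in 11B3-deleted leukaemias and reached 17122, 18951, 16409 and 21100 in p53-loss-only leukaemias. It had the same arrangement, with 11B3-deleted 2 below all the others (log2 difference 0.29, SE 0.25). Top2a and Cdc6 lie on chromosome 11, as the 11B3 segment does, but both had a higher mean in the 11B3-deleted group. Their distance from the segment was not examined.

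The spindle checkpoint kinases Bub1, Bub1b and Ttk delay anaphase until chromosomes are attached. Bub1 varied most of all members, at 2532, 818, 2875 and 1276 in 11B3-deleted leukaemias 1 to 4, compared with 730, 1366, 614 and 2212 in p53-loss-only leukaemias 1 to 4. Its log2 difference of 0.62 equalled that of Ccnb1, but its SE was 0.51 and the groups overlapped. Bub1b had 0.44 (SE 0.34) and Ttk 0.20 (SE 0.29).

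At the centromere, Cenpa, the histone H3 variant that marks it, was at 7866, 2722, 4970 and 3296 in 11B3-deleted leukaemias 1 to 4, compared with 2480, 2940, 1967 and 4112 in p53-loss-only leukaemias 1 to 4. It had the largest log2 difference of the 38, 0.64, with an interval from -0.15 to 1.44 (limma adjusted p = 0.996), and 11B3-deleted 1 stood well above the rest. The motor Cenpe had 0.30 (SE 0.25), Cenpf 0.28 (SE 0.18), and the microtubule-binding kinetochore subunits Nuf2 and Ndc80 0.23 (SE 0.27) and 0.06 (SE 0.19).

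Kif11, the motor that pushes spindle poles apart, was at 8882, 5160, 7469 and 7801 in 11B3-deleted leukaemias 1 to 4, compared with 5549, 4980, 5286 and 6210 in p53-loss-only leukaemias 1 to 4. Here too 3 of 4 11B3-deleted libraries lay above every p53-loss-only one (log2 difference 0.39, SE 0.19, 95% interval -0.03 to 0.81). Kif23, a motor of the midzone, had 0.44 (SE 0.28), Tpx2, which activates Aurora A on the spindle, 0.44 (SE 0.33), and the microtubule bundler Nusap1 0.38 (SE 0.34). Ube2c is the ubiquitin-conjugating enzyme and Cdc20 an activator of the anaphase-promoting complex, which ends mitosis. Ube2c was at 2675, 864, 2573 and 1550 in 11B3-deleted leukaemias and reached 929, 1235, 876 and 1743 in p53-loss-only leukaemias. It was lowest in 11B3-deleted 2 and p53-loss-only 3 (log2 difference 0.60, SE 0.38), and Cdc20 had 0.31 (SE 0.22).

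**Figure D5:**
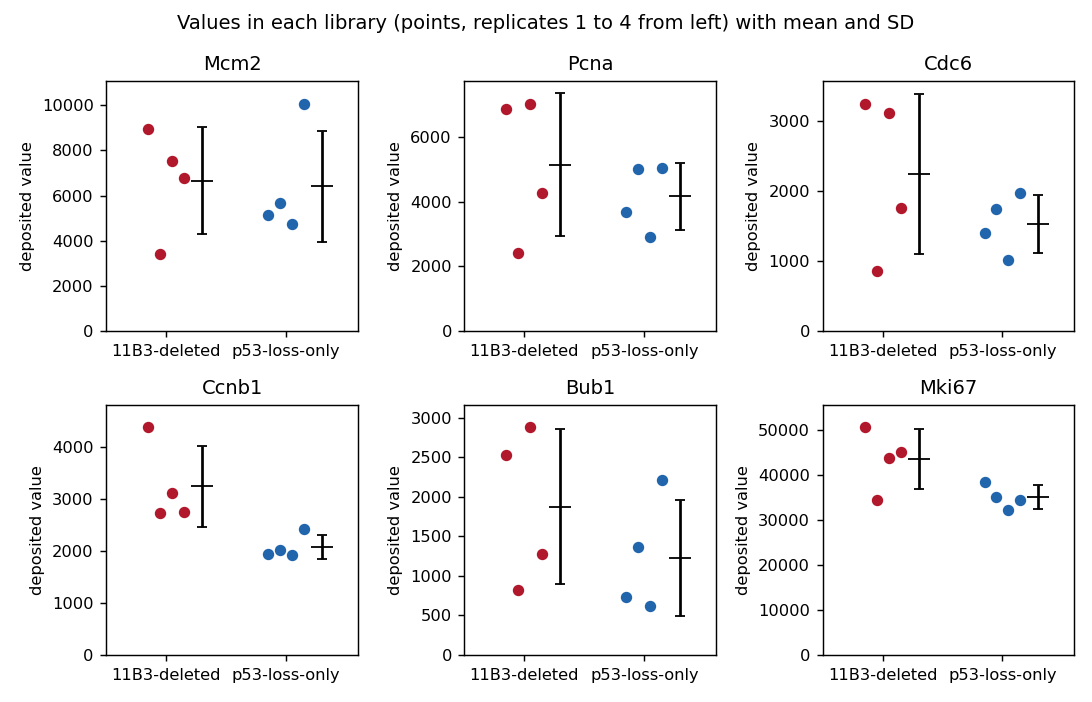
Deposited values of 6 members, Mcm2, Pcna, Cdc6, Ccnb1, Bub1 and Mki67, are plotted for each library, replicates 1 to 4 from left to right, with the mean and SD of each genotype. Only for Ccnb1 among these 6 do the groups not overlap. In all 6 panels the second 11B3-deleted point is the lowest of its group.

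Other genes of the same processes mostly had the same direction, and limma called none of them. Of 48 further DNA replication genes, 42 had a higher mean, against 51.6% of all tested genes. The median log2 difference of the list was 0.14, and none of its genes had an unadjusted limma p under 0.05. Those with the smallest p were Mcm10 (0.30, SE 0.15), Orc6 (0.44, SE 0.23) and the exonuclease Exo1 (0.38, SE 0.22). Of 53 further mitosis genes, 48 had a higher mean (median 0.23), against the same 51.6%. At an unadjusted limma p under 0.05, 5 were higher (1.18% of all genes were). After adjustment edgeR and DESeq2 called 0 of the 53. Kif20b, a kinesin, was at 3284 ± 430 across 11B3-deleted leukaemias and 2380 ± 252 across p53-loss-only leukaemias (SD, n = 4 each), and Sgol1, which protects centromeric cohesin, at 1577 ± 103 across 11B3-deleted leukaemias and 1187 ± 127 across p53-loss-only leukaemias (SD, n = 4 each). In these 2 of the 53 genes every 11B3-deleted library lay above every p53-loss-only library, against 0.913% of all tested genes. Cks2, a CDK-binding subunit, had a log2 difference of 0.63 (SE 0.23). Library medians of both lists followed the members, at 0.36, -0.36, 0.37 and 0.00 (replication) and 0.23, -0.21, 0.39 and -0.02 (mitosis) in 11B3-deleted leukaemias, compared with -0.20, -0.05, -0.37 and 0.16 and -0.25, -0.12, -0.37 and 0.30 in p53-loss-only leukaemias.

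A list of G1 regulators and inhibitors was less uniform. It also holds genes not confined to G1, such as Wee1, Chek1 and Mybl2. Of 36 listed, 35 had a row and were tested. A higher mean was found for 25 of these, against 51.6% of all tested genes. The median log2 difference of the list was 0.18, and limma called none of its genes. Tfdp1, the dimerization partner of E2F, was at 8539, 6719, 7964 and 9855 in 11B3-deleted leukaemias 1 to 4, compared with 6572, 5709, 6026 and 5975 in p53-loss-only leukaemias 1 to 4. These groups did not overlap (log2 difference 0.43, SE 0.15, limma adjusted p = 0.996). In 1 of the 35 genes, Tfdp1, every 11B3-deleted library lay above every p53-loss-only library, against 0.913% of all tested genes. Ccnd1, cyclin D1, had a log2 difference of -0.80 (SE 0.37) and E2f8, an E2F family repressor, 0.34 (SE 0.17). Cdkn1a encodes p21, a CDK inhibitor under p53 control. It was at 273, 866, 509 and 957 in 11B3-deleted leukaemias and reached 1375, 489, 1910 and 419.5 in p53-loss-only leukaemias. Within the 11B3-deleted group Cdkn1a was lowest in replicates 1 and 3, where the members were highest. Over all 8 libraries it was highest in p53-loss-only 3, where 14 members were lowest (log2 difference -0.56, SE 0.58). In 11B3-deleted 2, where 20 members were lowest, Cdkn1a was at 866, below its 957 in 11B3-deleted 4. A link between Cdkn1a and the members was not tested. Cdkn2a, which encodes p16 and ARF, was at 2859, 469, 1494 and 612 in 11B3-deleted leukaemias and reached 753, 1577, 682 and 578 in p53-loss-only leukaemias (log2 difference 0.35, SE 0.57).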

How the data were processed

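Total RNA of 8 leukaemias was sequenced, 4 per genotype, with groups read from the titles. STAR, HTSeq, DESeq and mm9 are named in the submitters' processing notes, with no role or version. The deposited signal values are reads scaled by a factor per library, plus 1. After subtraction of that 1, division by each library's smallest increment returned whole reads for 100% of the values (tolerance 0.02 reads). Strand handling, multi-copy genes and molecular identifiers were not given in the sources used here. The unit is no raw count, so the test fixed for that case was limma.

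The 14679 genes that reached a value of 10 in 4 or more libraries were fitted in limma 3.58.1 (R 4.3.3), allowing a mean-variance trend, on the log2 deposited value, the added 1 serving as pseudocount, so folds of low genes are understated. Genotype was the only term. Tests were two-sided with Benjamini-Hochberg adjustment over all tested genes at 0.05, and intervals are 95%. Alternatives were TMM scaling, no filter, a minimum of 50, a constant of 5, edgeR 4.0.16 and DESeq2 1.42.0 on the recovered reads, each library left out, a replicate block, means in place of medians, shorter member lists and, chosen after seeing the data, 11B3-deleted replicates 1 and 3 left out together. The fit was tested on simulated data. Every pair of libraries differed by more than counting error (smallest chi-square per degree of freedom 94.4). The labels speak of lines rather than animals, so p-values describe the spread between these libraries, which may be partly technical.

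The members and all gene lists were chosen with earlier results of these data known. Values in every library are given for 9 fixed members and, in each phase, for the 5 with the smallest p and the 3 with the largest SD. Up to 3 genes per pathway list, by smallest p, are named, with Cdkn1a and Cdkn2a. Cenpf, Tfdp1's library values and other members singled out for their pattern were chosen after their values were seen. Promoters shown are the 2 per phase with the smallest p that hold the phase's motif.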

Additional observations from a re-analysis of the deposited data

Results flagged for a closer look

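In each group of 4 libraries the highest or lowest value of each member was compared with the rest by Dixon's criterion. Of 82 such groups examined, which include the library medians, 5 had a library far from the other 3, and chance gives about 1 in 20. All 5 are G2-M genes, and they come from 2 libraries. In 11B3-deleted replicate 2, Cenpe was low, at 2661.2, against 4514.5 to 4724.3 in the other 11B3-deleted libraries. Nuf2 was also low there, at 1058.8, against 2230.9 to 2297.1 in the others. In p53-loss-only replicate 4, Cenpe was high, at 4883.6, against 2776.2 to 2987.9 in the other p53-loss-only libraries. Cdc20 was high there at 4401.2 (2502.3 to 2817.5 in the others), and so was the checkpoint kinase Ttk at 1736.8 (1032.8 to 1079.0 in the others).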

How the results depend on the processing

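No member passed adjustment under any alternative run. Over all genes limma called 2, against 1 with a minimum of 50, 1 with a constant of 5, 1 with edgeR, 58 with DESeq2, 0 with 11B3-deleted replicates 1 and 3 left out together (362 at an unadjusted p under 0.05) and 0 to 1 with 1 library left out. The replicate block gave 0 (375 at an unadjusted p under 0.05). Same-numbered libraries did not deviate together (r -0.414 to -0.03) and none correlated best with its own number, so the block has no basis in the design. With 1 library left out, the S-phase median ranged from 0.02 to 0.37, the G2-M median from 0.25 to 0.51 and the phase gap from -0.16 to -0.05. Without E2f1, Ccne1 and Ccne2 the S-phase median was 0.04 and the gap -0.18, against a gap of -0.10 with all members. With means in place of medians the gap was -0.22. With DESeq2 the S-phase median was 0.17.

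Of 608 member values under alternatives, 52 changed sign, in 23 members, and the cause was not tested. With edgeR and DESeq2 Tyms became 0.02 and 0.03 and Gins1 0.04 and 0.05. With 1 library left out, ranges crossed 0 for Mcm2 (-0.13 to 0.33), Mcm3 (-0.09 to 0.22), Mcm6 (-0.04 to 0.31), Mcm7 (-0.17 to 0.10), Rrm2 (-0.06 to 0.11), Tyms (-0.18 to 0.24), Cdc45 (-0.15 to 0.21), Gins1 (-0.27 to 0.33), E2f1 (-0.11 to 0.40), Foxm1 (-0.04 to 0.32) and Ndc80 (-0.05 to 0.18). Without 11B3-deleted replicates 1 and 3 together, the S-phase median was -0.19, the G2-M median 0.09 and the gap -0.25. Members that then turned lower were Mcm2 (-0.35), Mcm3 (-0.19), Mcm4 (-0.15), Mcm6 (-0.08), Pcna (-0.34), Rrm1 (-0.18), Rrm2 (-0.15), Cdc6 (-0.28), Cdc45 (-0.13), E2f1 (-0.49), Ccne1 (-0.20), Ccna2 (-0.01), Bub1 (-0.08), Bub1b (-0.08), Nusap1 (-0.14), Tpx2 (-0.03), Ttk (-0.20), Ndc80 (-0.08) and Nuf2 (-0.03). With 4 libraries per genotype, the differences in the phase medians are within the spread between libraries.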

Other observations

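The replication-dependent histone genes, whose RNA is made in S phase to package new DNA, did not follow the S-phase members. Of 29 listed, 27 were tested. A lower mean in the 11B3-deleted leukaemias was found for 26 of them, against 7106 of all 14679 tested genes. The median log2 difference of the histone list was -1.17, and its exception was Hist1h2ag. With limma none passed adjustment, 11 were lower at an unadjusted p under 0.05 (2.38% of all tested genes were), and in 6 every 11B3-deleted library lay below every p53-loss-only library (1.23% of all tested genes). DESeq2 called 1 of them, Hist2h4, at 31.3, 19.3, 27.2 and 16.1 in 11B3-deleted leukaemias 1 to 4, compared with 124, 86.3, 31.7 and 147 in p53-loss-only leukaemias 1 to 4 (limma log2 difference -1.89, SE 0.53; DESeq2 adjusted p = 0.0319). Hist1h2bg averaged 55.3 ± 17.7 across 11B3-deleted leukaemias and 166 ± 82.0 across p53-loss-only leukaemias, and Hist1h1e 32.9 ± 11.3 across 11B3-deleted leukaemias and 131 ± 113 across p53-loss-only leukaemias (SD, n = 4 each). Library medians of the histone list were -0.38, -0.69, -0.03 and -1.3 in 11B3-deleted leukaemias, compared with 0.54, 0.18, -0.41 and 2.21 in p53-loss-only leukaemias, so that p53-loss-only 4 was far above the rest and the groups overlapped. Histone genes have near-identical copies whose reads counting may split, most lack a poly(A) tail, and their values here are low, so these counts are uncertain.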
